A study of Mus musculus with 6 samples.

Results

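Gata2, Gata3, Gata5, Zfpm1 and Zfpm2 are 5 of the 21938 protein-coding genes of the annotation, and were examined for CUT&RUN regions of the transcription factors GATA4 and GATA6 in XEN cells, a mouse stem cell line of the extra-embryonic endoderm. They hold the GATA factors other than Gata1, Gata4 and Gata6 together with both Friend of GATA (FOG) cofactors. Regions were taken when they touched the gene body or were no further than 50 kb from any transcription start site (TSS) annotated for the gene, an interval called the window here. In CUT&RUN an antibody brings micrococcal nuclease to the protein of interest in permeabilised cells, and the short DNA fragments it frees are sequenced. There were 3 GATA4 and 3 GATA6 libraries, each from 500000 cells, with 30000000 reads stated per sample. All 6 libraries came from XEN cells of genotype 3F2, so as labelled the groups differed in the antibody alone. These embryo-derived cells carry a doxycycline-inducible cassette of Oct4, Klf4, Sox2 and mCherry, the Rosa26-M2rtTA transactivator and an Oct4-GFP reporter, and per the study's methods they were profiled as starting cells. The methods also name a second line, 3F6, and fewer replicates, so the labels were followed. Nothing says that the replicates came from separate cultures, and p-values therefore measure only the spread between these libraries. RNA was not measured in these libraries, so the endoderm identity of the cells and the expression of the 5 genes were not checked here.

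GATA factors bind the short DNA word GATA through zinc fingers, and GATA4 and GATA6 specify the primitive endoderm from which XEN cells derive. GATA2 and GATA3 are best known in blood progenitors, trophoblast and, for GATA3, T cells, while GATA5 acts in heart and gut endoderm. FOG1, the product of Zfpm1, and FOG2, the product of Zfpm2, do not recognise the GATA word themselves but dock on the N-terminal zinc finger of a GATA factor and recruit co-repressors, FOG1 chiefly in blood and FOG2 in heart and gonad together with GATA4.

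The sequences below show where the GATA word lay at the strongest points of some regions that recurred at Gata2, Gata3 and Zfpm1. Beyond the strongest region of each gene, they were picked after their GATA words were seen. Regions left out include GATA4 regions at Gata2 and Zfpm1 with no such word at the maximum. Each run was read from the GRCm38 assembly (mm10) in the direction of the gene and has 200 bases placed on the mean position of maximum signal over the replicates of the named factor. Capitals mark every match to the word AGATAA, the word AGATAG, the word TGATAA or the word TGATAG on either strand, so a match on the opposite strand reads as TTATCT for the first, CTATCT for the second, TTATCA for the third and CTATCA for the last. These words are called GATA words here. The coordinates are followed by the strand.
Gata2 24.2 kb upstream, GATA4, chr6:88169560-88169759, plus: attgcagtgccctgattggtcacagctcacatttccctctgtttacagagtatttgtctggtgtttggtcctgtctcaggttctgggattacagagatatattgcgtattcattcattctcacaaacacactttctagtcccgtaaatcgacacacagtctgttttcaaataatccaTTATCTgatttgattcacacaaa
Gata2 4.13 kb upstream, GATA4, chr6:88189663-88189862, plus: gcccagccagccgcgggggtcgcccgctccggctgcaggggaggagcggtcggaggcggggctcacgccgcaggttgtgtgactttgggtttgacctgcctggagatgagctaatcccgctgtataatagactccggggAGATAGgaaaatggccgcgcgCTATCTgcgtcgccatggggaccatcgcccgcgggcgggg
Gata2 2.95 kb upstream, GATA4, chr6:88190844-88191043, plus: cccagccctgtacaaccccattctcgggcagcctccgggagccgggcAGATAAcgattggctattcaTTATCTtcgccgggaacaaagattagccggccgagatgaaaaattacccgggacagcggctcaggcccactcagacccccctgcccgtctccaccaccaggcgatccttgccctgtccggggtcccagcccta
Gata3 intron, GATA6, chr2:9879612-9879811, minus: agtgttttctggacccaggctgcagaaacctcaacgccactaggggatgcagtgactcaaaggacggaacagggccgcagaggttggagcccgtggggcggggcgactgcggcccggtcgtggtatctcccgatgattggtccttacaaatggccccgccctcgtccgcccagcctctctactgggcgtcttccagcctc
Zfpm1 12.28 kb into the gene, GATA4, chr8:122294316-122294515, plus: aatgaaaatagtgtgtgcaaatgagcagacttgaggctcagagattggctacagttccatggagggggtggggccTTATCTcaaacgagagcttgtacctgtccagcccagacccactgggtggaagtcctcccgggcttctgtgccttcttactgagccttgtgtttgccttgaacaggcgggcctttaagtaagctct
Zfpm1 14.62 kb into the gene, GATA4, chr8:122296658-122296857, plus: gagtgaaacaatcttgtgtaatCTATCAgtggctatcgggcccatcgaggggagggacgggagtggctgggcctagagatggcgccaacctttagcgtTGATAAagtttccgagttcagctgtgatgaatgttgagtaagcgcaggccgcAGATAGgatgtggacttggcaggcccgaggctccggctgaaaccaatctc
Zfpm1 27.34 kb into the gene, GATA4, chr8:122309377-122309576, plus: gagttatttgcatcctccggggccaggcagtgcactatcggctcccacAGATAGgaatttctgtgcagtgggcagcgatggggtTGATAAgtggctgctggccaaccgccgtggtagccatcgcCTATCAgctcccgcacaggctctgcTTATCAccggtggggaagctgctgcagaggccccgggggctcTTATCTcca
Zfpm1 40.8 kb into the gene, GATA4, chr8:122322844-122323043, plus: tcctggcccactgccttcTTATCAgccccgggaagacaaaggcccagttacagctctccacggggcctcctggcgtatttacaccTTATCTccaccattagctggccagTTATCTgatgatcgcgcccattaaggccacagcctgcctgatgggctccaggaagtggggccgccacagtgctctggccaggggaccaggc

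At 4.13 kb upstream of Gata2 the window held an AGATAG and, 21 bases further on, its reverse complement CTATCT. At 2.95 kb upstream it held an AGATAA and, 20 bases further on, its reverse complement TTATCT. The Gata3 window held no match, though it held 1 copy of the core letters GATA, read there as TATC. The Zfpm1 window at 27.34 kb held 5 matches, the most among such windows at the 5 genes, and those at 14.62 kb and 40.8 kb held 3 each. A match describes these letters and not a bound site.

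The per-library lists held 42446 to 49597 regions, and the median region of every list had a maximum signal of 4 stacked fragments. A combined list per factor kept the regions found in all 3 of its libraries, 8282 for GATA4 and 5170 for GATA6. Of the 201994 regions left after the 6 lists were merged, 83.2% came from 1 library and 1.88% from all 6. Called regions were unevenly spread over chromosomes. Relative to the autosomes as a whole, their number per Mb averaged 2.64 on chromosome 8 (range over the 6 libraries 2.37 to 2.88), where Zfpm1 lies, against 0.708 on chromosome 2 (Gata3, Gata5), 0.716 on chromosome 6 (Gata2) and 0.762 on chromosome 15 (Zfpm2). The files hold no read totals, and the depth behind a region is known only from its own signal.

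To ask which of these genes carry reproducible GATA4 or GATA6 regions, the combined lists were searched first. Zfpm1 and Gata2 held combined GATA4 regions, and Zfpm1, Gata2 and Gata3 held combined GATA6 regions, while Gata5 and Zfpm2 held neither. With GATA4 this was 2 of 5 genes, where 48.2% of all protein-coding genes had such a region, and with GATA6 it was 3 of 5, against 38.3%. A region of both lists was present at Gata2 and Zfpm1, against 33.8% of all genes, and no region of either at Gata5 and Zfpm2, against 47.3%. With 5 genes these shares cannot show a match to those of all genes or a departure from them. In total the 5 windows held 13 combined GATA4 and 8 combined GATA6 regions.

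Zfpm1 (ENSMUSG00000049577.15, chr8:122282141-122337251, plus strand), which encodes FOG1, had the most regions of the 5 genes. Its 152 kb window held 9 combined GATA4 and 6 combined GATA6 regions. The GATA4 libraries had 16, 17 and 20 called regions there and the GATA6 libraries 15, 19 and 17. The ranges overlapped, with means of 17.7 ± 2.08 and 17 ± 2 (SD, n = 3 each), and the difference of 0.667 was smaller than the spread between libraries (two-sided exact permutation p = 0.8). Per 100 kb of window Zfpm1 averaged 11.4 called regions over the 6 libraries, above 98.6% of all protein-coding genes, whose median was 2.13. Among the 1040 genes of chromosome 8 the median was 6.50, and Zfpm1 stood at percentile 90.9. By number of combined GATA4 regions it was at percentile 99.7 of all genes and 99.1 of chromosome 8 genes, and by combined GATA6 regions at 99.4 and 95.8. On that chromosome 74.6% of genes had a combined GATA4 region and 70.3% a combined GATA6 region. The part of the dense calls of chromosome 8 in the Zfpm1 counts was not tested beyond this comparison.

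**Figure D1:**
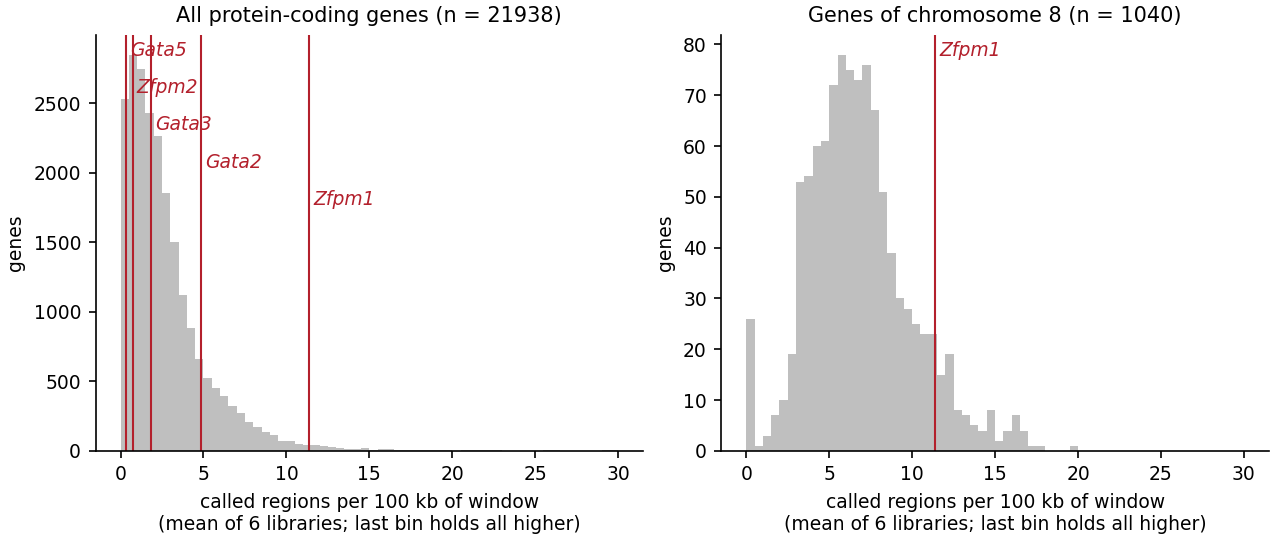
Histograms of called regions per 100 kb of window (x axis, mean of 6 libraries) against the number of genes (y axis), for all 21938 protein-coding genes on the left and the 1040 of chromosome 8 on the right, with the 5 genes as lines. Zfpm1, at 11.4, lies in the far right tail of all genes but closer to the body of the chromosome 8 genes, while Gata5 and Zfpm2 lie at the left edge.

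The strongest Zfpm1 regions lay at its promoter and in its introns. All of its combined regions also fall within an annotated longer gene model, Gm20388, that spans the whole window. For each region, signal is given as the percentile rank of its total signal within the list of a library, since signal was not scaled for depth. The promoter region (GATA4 chr8:122280871-122282239) covered the first TSS and reached percentile 99.3, 99.1 and 99.7 in GATA4 replicates 1, 2 and 3, and the overlapping GATA6 region (chr8:122279967-122282237) averaged 98.9 ± 1.12 (SD, n = 3). The region 12.28 kb into the gene (chr8:122293595-122294739) was at least as strong, with a GATA4 mean of 99.4 ± 0.0747 and a GATA6 mean of 99.3 ± 0.825 (SD, n = 3 each). Its maximum was 24, 21 and 25 fragments in the GATA4 and 17, 17 and 15 in the GATA6 libraries, the tallest of the regions at the 5 genes in every library. Both sites were therefore near the top of all 6 lists.

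Further intronic regions were shared by both factors. At 31.41 kb into Zfpm1 (chr8:122313137-122313959) the mean percentile was 97.4 ± 2.43 for GATA4 and 97.4 ± 0.848 for GATA6, and at 40.8 kb (chr8:122322567-122324052) it was 90.9 ± 5.93 and 93.3 ± 0.794 (SD, n = 3). The region at 14.62 kb (chr8:122296204-122297220) was steady with GATA4, at 96.9, 97.2 and 96.6, but varied with GATA6, at 95.1, 47.9 and 75.3. The last shared region (GATA4 chr8:122375910-122376703, 93.7 ± 5.98, and GATA6 91.3 ± 1.60) lay beyond the gene and covered the TSS of its neighbour Zc3h18, which encodes an RNA-processing protein. Proximity alone puts it in the Zfpm1 window.

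Another 3 Zfpm1 regions, all intronic, were in the combined list of GATA4 only, and each was nonetheless called in 1 GATA6 library. They were weaker. At 9.06 kb (chr8:122290822-122292123) the GATA4 percentiles were 65.6, 82.1 and 91.8, and the GATA6 call ranked at 77.3. At 27.34 kb (chr8:122309091-122309717), with 5 GATA words in the 200 bases at its maximum, they were 12.1, 51.9 and 49.1. Their mean of 37.7 ± 22.2 (SD, n = 3) exceeded that of only 1.58% of the combined GATA4 list. The GATA6 call there ranked higher, at 73.7. At 51.15 kb (chr8:122332978-122333581) the GATA4 percentiles were 3.87, 86.3 and 79.6, and the GATA6 call ranked at 52.5. This region lay 117 bp from the nearest TSS of a shorter Zfpm1 transcript. GATA4 replicate 1 gave the lowest GATA4 percentile at each of these 3 regions. At 27.34 and 51.15 kb its maximum was nonetheless the highest of the GATA4 libraries, at 8 and 7 fragments. A further region, 8735 bp upstream of the first TSS (chr8:122273018-122273406), was called in 4 libraries, 2 of each factor, at percentiles of 21.0 to 63.2, and entered neither combined list.

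**Figure D2:**
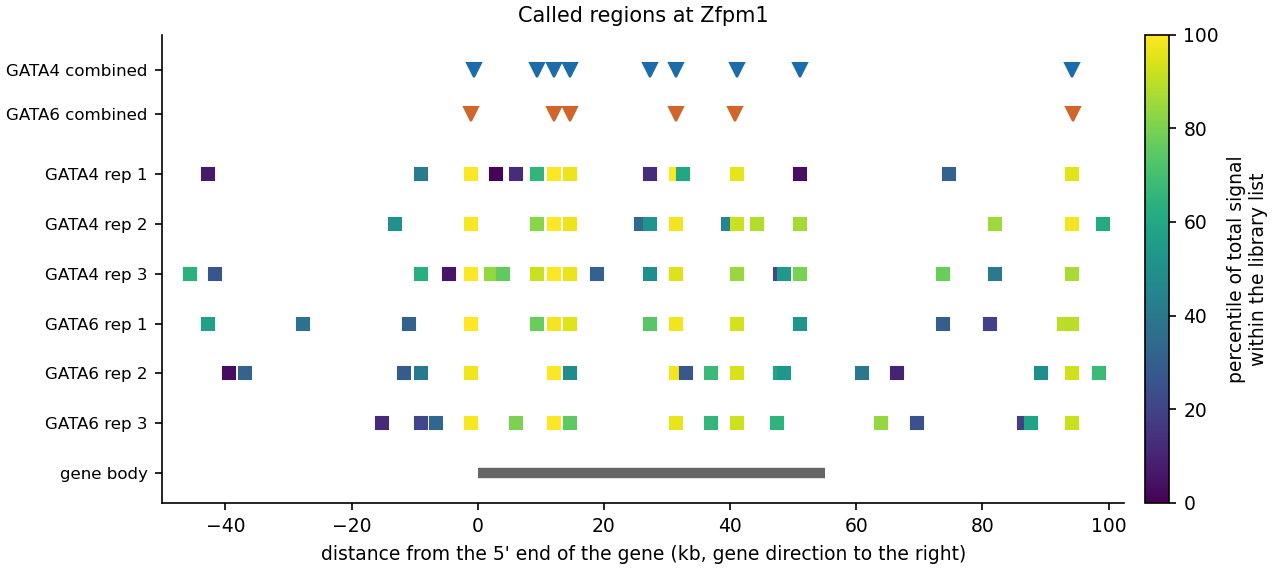
Positions of combined regions (triangles) and of every called region in each library (squares) at Zfpm1, by distance from the 5' end of the gene in kb (x axis) and by list (y axis), with square colour giving the percentile of total signal within the list and the grey bar the gene body. The bright columns at the promoter, 12.28, 31.41 and 40.8 kb recur in all 6 libraries, whereas most flanking squares appear in 1 library.

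Calls in the Zfpm1 gene body and its flanks were also counted apart. In the gene body GATA4 libraries had 12, 13 and 12 called regions and GATA6 libraries 7, 9 and 7. These groups did not overlap, with means of 12.3 ± 0.577 and 7.67 ± 1.15 (SD, n = 3) and a difference of 4.67 (two-sided exact permutation p = 0.1, the smallest that 3 against 3 libraries allow). Such separation with GATA4 above was seen at 2.28% of all genes, and with GATA6 above at 0.866%. In the flanks GATA4 libraries had 4, 4 and 8 regions and GATA6 libraries 8, 10 and 10, which touch at 8 (difference -4, exact permutation p = 0.2). The split was examined among alternatives for 5 genes, and the other 4 genes gave exact permutation p-values of 0.9 or 1 in the gene body.

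Gata2 (ENSMUSG00000015053.14, chr6:88193891-88207032, plus strand) was the other gene with several reproducible regions. Its 110.6 kb window held 4 combined GATA4 regions and 1 combined GATA6 region. GATA4 libraries had 6, 6 and 7 called regions and GATA6 libraries 6, 4 and 3. The groups met at 6, with means of 6.33 ± 0.577 and 4.33 ± 1.53 (SD, n = 3) and a difference of 2 (two-sided exact permutation p = 0.3). The smallest possible exact permutation p, 0.1, was reached with lists cut to equal length (difference 3), stricter lists (3.33) and without GATA6 replicate 1 (2.83). In the gene body the difference was 0. The remaining alternatives that counted regions gave 1.33 to 2.17. Their exact permutation p was 0.2 to 0.4, and with the replicate number as a block the exact sign-flip p was 0.5. At 4.82 regions per 100 kb Gata2 was at percentile 84.7 of all genes, and at 96.6 of the genes of chromosome 6, whose median was 1.66.

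The single site at Gata2 shared by both combined lists lay 24.2 kb upstream, between genes. With GATA4 (chr6:88169464-88169974) it ranked at 89.3, 86.8 and 89.4, a mean of 88.5 ± 1.50, and with GATA6 (chr6:88169293-88170027) at 76.4, 65.2 and 81.8, a mean of 74.5 ± 8.48 (SD, n = 3 each). Its maximum was 3 to 6 fragments in the 6 libraries, so the site recurred at a low pileup. The whole GATA6 region held 5 GATA words although the 200 bases at its GATA6 maximum held none.

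The other 3 Gata2 regions clustered around its start and were in the combined list of GATA4 only. In blood progenitors the area upstream of Gata2 is known for regulatory elements bound by GATA factors. The region 4.13 kb upstream (chr6:88189448-88190194) lay in an intron of the lncRNA Gm38708 and ranked at 91.0, 94.2 and 89.0 with GATA4. It was called in 1 GATA6 library, at percentile 7.53 by total signal. Its maximum there was 8 fragments, where the GATA4 libraries had 8, 9 and 6. The region 2.95 kb upstream (chr6:88190509-88191654) covered the TSS of Gm38708 and ranked at 95.5, 67.6 and 94.7 with GATA4, and in 2 GATA6 libraries at 0.218 and 89.0. These are the windows that each held a GATA word followed by its reverse complement.

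The last region (chr6:88198116-88198981) covered the proximal Gata2 TSS and the 5' untranslated exon there. It ranked at 97.4, 85.0 and 73.5 with GATA4, with 11, 11 and 7 fragments at the maximum, and at 29.4 and 80.7 in 2 GATA6 libraries. No GATA word lay at its maximum. The distal Gata2 promoter was covered in 0 libraries. No Gata2 region was called in all 3 GATA4 libraries and none of the GATA6 libraries. Only 0.37% of all merged regions were, so this says little about Gata2.

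Gata3 (ENSMUSG00000015619.10, chr2:9857078-9890034, minus strand) held 1 combined region, of GATA6. GATA4 libraries had 3, 2 and 2 called regions in its 116 kb window and GATA6 libraries 1, 1 and 4. The ranges overlapped, with means of 2.33 ± 0.577 and 2 ± 1.73 (SD, n = 3; difference 0.333, two-sided exact permutation p = 1). The GATA6 region (chr2:9879460-9879986) lay in an intron of the longer Gata3 transcripts, 860 bp upstream of the nearest Gata3 TSS. It ranked at 94.4, 80.8 and 66.0 with GATA6, with 12, 4 and 7 fragments at the maximum, and at 86.8 and 36.8 in GATA4 replicates 1 and 3. It was not called in GATA4 replicate 2 and so was not in the combined GATA4 list. It held no match to the GATA words over its whole length. A region over the TSS of the neighbouring Taf3, a subunit of the TFIID initiation complex, was called in 1 library of each factor.

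**Figure D3:**
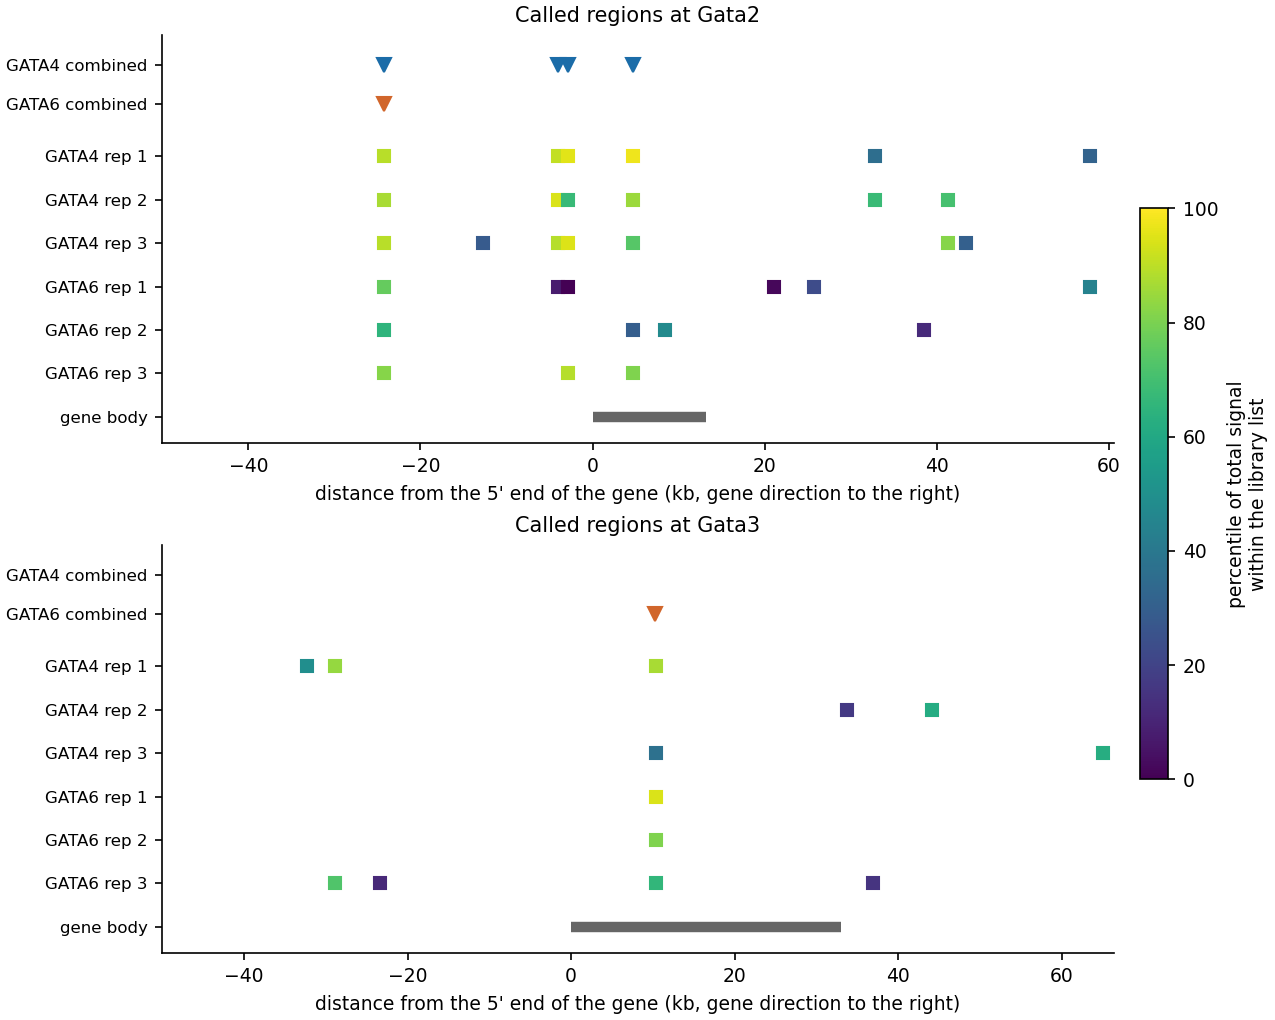
Combined regions (triangles) and called regions of each library (squares) at Gata2 (top) and Gata3 (bottom), by distance from the 5' end of the gene in kb (x axis) and by list (y axis), with colour giving the percentile of total signal within the list. At Gata2 the column 24.2 kb upstream is filled in all 6 libraries and those around the start in all GATA4 but not all GATA6 libraries. At Gata3 a column in the gene is filled in 5 libraries and that over the Taf3 TSS in 2.

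Gata5 (ENSMUSG00000015627.5, chr2:180325133-180334699, minus strand) had almost no calls. All 3 GATA4 libraries and GATA6 replicates 1 and 2 had 0 regions in its 100 kb window, and GATA6 replicate 3 had 2 (difference -0.667, two-sided exact permutation p = 1). The regions were in an intron (percentile 39.1) and 12.6 kb upstream (percentile 2.66). The nearest combined regions lay just past the window, 58.2 kb from the TSS for GATA4 (chr2:180275884-180276517, 85.5 ± 3.74) and 57.8 kb for GATA6 (chr2:180275889-180276942, 79.4 ± 22.6; SD, n = 3), with Cables2 as the nearest gene. Whether this site concerns Gata5 cannot be read from position.

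Zfpm2 (ENSMUSG00000022306.9, chr15:40655035-41104592, plus strand), which encodes FOG2, is the longest of the 5 genes. Across its 499.6 kb window GATA4 libraries had 2, 6 and 4 called regions and GATA6 libraries 1, 2 and 7. The ranges overlapped, with means of 4 ± 2 and 3.33 ± 3.21 (SD, n = 3; difference 0.667, two-sided exact permutation p = 0.9). These calls merged into 22 regions, and all 22 came from 1 library, with percentiles of 6.37 to 79.3 and a median of 42.8. Per 100 kb Zfpm2 averaged 0.734 regions, at percentile 16.3 of all genes and 12.7 of chromosome 15 genes, and the nearest combined region was 828.8 kb from a Zfpm2 TSS for GATA4 and 828.6 kb for GATA6. Regions found in all 6 libraries numbered 0 in the Zfpm2 window and 6 in that of Zfpm1, 1 of them over the Zc3h18 TSS.

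**Figure D4:**
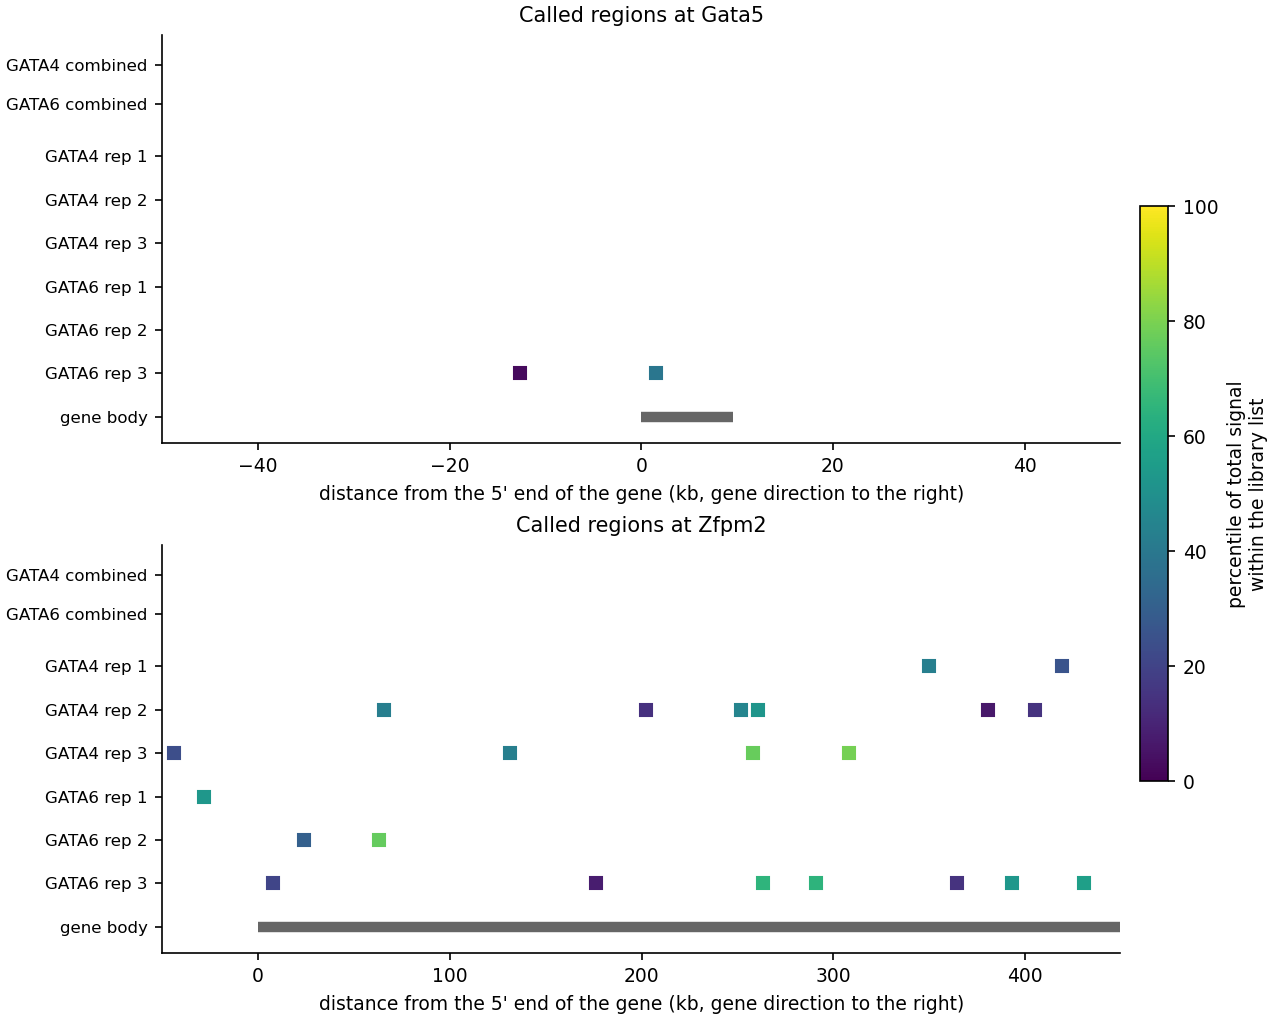
Called regions of each library (squares, coloured by percentile of total signal within the list) at Gata5 (top) and Zfpm2 (bottom), by distance from the 5' end of the gene in kb (x axis) and by list (y axis). No triangle is drawn because neither combined list had a region there, and the 22 squares at Zfpm2 fall at 22 different places.

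Over the 5 windows together GATA4 libraries had 27, 31 and 33 called regions and GATA6 libraries 23, 26 and 33. The totals overlapped, with means of 30.3 ± 3.06 and 27.3 ± 5.13 (SD, n = 3), and the difference of 3 was within the spread between libraries (two-sided exact permutation p = 0.5). Adjusted by Benjamini-Hochberg over the 5 genes, all p-values were 1. At 0 of the 5 genes did all libraries of a factor exceed all libraries of the other, where 5.36% of all genes had GATA4 above and 1.49% GATA6 above. In covered sequence the difference was likewise small, with 15822 ± 3214 bp for GATA4 and 14812 ± 1259 bp for GATA6 (SD, n = 3; exact permutation p = 0.8).

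**Figure D5:**
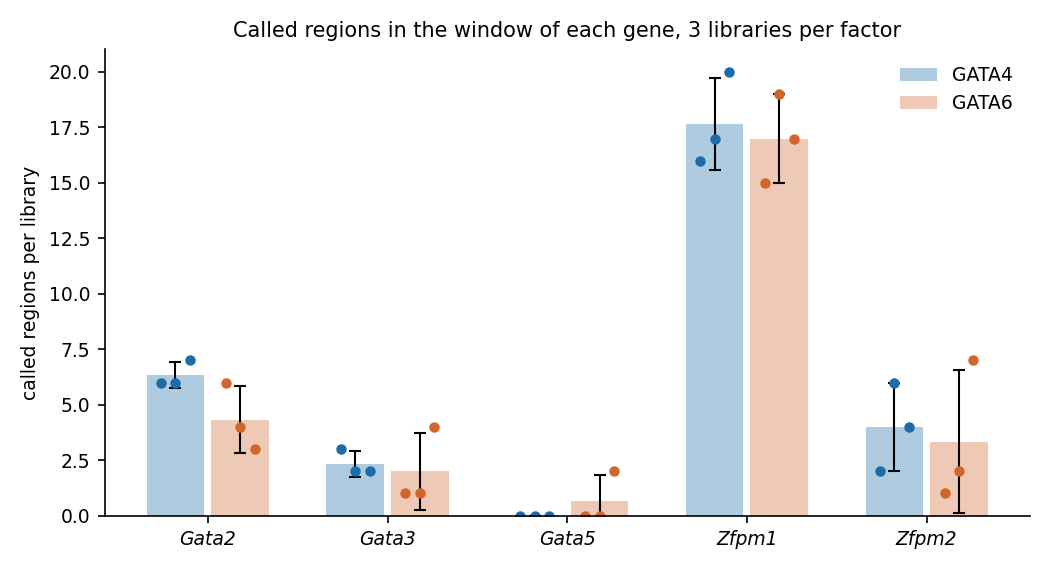
Called regions per library (y axis) in the window of each of the 5 genes (x axis), with points for the 3 libraries of each factor, bars for their mean and whiskers for the SD. The points of both factors overlap or touch at every gene, and Zfpm1, with 15 to 20 regions, stands above the others.

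The 6 lists merged into 95 regions at the 5 genes. Of these 72.6% came from 1 library and 7.37% from all 6. The 7 regions in all 6 libraries were the Gata2 site 24.2 kb upstream and 6 in the Zfpm1 window, so 2 of the 5 genes had one, against 31% of all genes. Another 8 were called in 4 or 5 libraries, 3 at Gata2, 1 at Gata3 and 4 at Zfpm1. Merged regions with all 3 libraries of a single factor and 0 of the other numbered 0, against 0.462% of all merged regions. At the 7 places held by both combined lists the positions of maximum signal of GATA4 and GATA6 were 5 to 178 bp apart, with a median of 43 bp.

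The signal ranks of the combined regions are given against those of their whole lists, as a description with no test. With GATA4 the median percentile of the 13 regions was 95.7, 92.0 and 89.4 in the 3 replicates, a mean of 92.4 ± 3.16, where the whole combined list had 88.9 ± 0.516. With GATA6 the 8 regions had 94.8, 93.4 and 92.0, a mean of 93.4 ± 1.38, against 89.4 ± 0.478 (SD, n = 3). The SD is that of the medians over libraries. Means of single regions ran from 37.7 to 99.4 with GATA4 and from 72.8 to 99.3 with GATA6. In the Zfpm1 window lay 9 of the 13 and 6 of the 8 regions. No signal rank for chromosome 8 alone was taken, so the medians mostly describe Zfpm1. Of the 13 GATA4 regions 4 covered a TSS, 8 were intronic and 1 was intergenic, and 6 lay within 1 kb of a TSS, against 50.5% of the list. Of the 8 GATA6 regions 2 covered a TSS, 5 were intronic and 1 was intergenic, and 3 lay within 1 kb of a TSS, against 55.8%. The median GC content was 57.0% and 58.7%, with 51.6% and 53.1% in the lists.

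A GATA word lay within 100 bp of the maximum in 9 of the 13 GATA4 regions, against 45.0% of the list, and in 5 of the 8 GATA6 regions, against 36.2%. Around the region midpoint instead it was 6 of 13, against 39.7%, and 4 of 8, against 33.0%. As 7 places were in both lists, the factors are not separate sets. Among regions more than 1 kb from a TSS, counted after seeing the data, a GATA word at the maximum was present in 7 of 7 and 4 of 5, against 70.6% and 61.7% of such regions in the lists. The core letters GATA alone, on either strand, lay there in 9 of the 13 and 7 of the 8 regions. In the whole lists this held for 61.4% and 54.3%. The TSS regions of Zfpm1 and Gata2 had no GATA word at their GATA4 maximum. Over their whole length they held 2 and 1 GATA words, and the Zfpm1 region had 1 at its GATA6 maximum. RefSeq promoter sequences, from 250 bases before to 50 after a start in GRCm38.p6, matched 4 of the 5 genes (not Zfpm2), and the word occurred in that of Gata3 alone, where 0 libraries had a region, while 29.8% of 32851 promoters held it. The Zfpm1 promoter, covered in all 6 libraries, is shown for its 250 upstream bases.
Zfpm1 promoter, chr8:122281891-122282140, plus: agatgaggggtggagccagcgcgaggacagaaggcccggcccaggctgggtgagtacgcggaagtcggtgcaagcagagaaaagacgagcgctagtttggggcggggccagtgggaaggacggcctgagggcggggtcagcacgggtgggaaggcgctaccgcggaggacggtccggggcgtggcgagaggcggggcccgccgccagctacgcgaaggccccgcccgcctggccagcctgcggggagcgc

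Other genes of the same families were counted in the same way. Of 12 further genes with a GATA-type zinc finger, 9 had a combined GATA4 and 8 a combined GATA6 region, against 48.2% and 38.3% of all protein-coding genes, with a median of 1.5 and 1 per gene where that of all genes was 0 for both. The most were at Mta2 on chromosome 19, a NuRD subunit, with 14 GATA4 and 10 GATA6 regions, more than at Zfpm1, and Gatad2a on chromosome 8, another NuRD subunit, held 7 and 6 (both named after their values were seen). Gata4 held 8 GATA4 and 4 GATA6 regions and Gata6 held 4 and 1, whereas the blood factor Gata1 and the repressor Trps1 held 0 of either, as did Gata5. Of 20 partner genes of GATA and FOG proteins 10 had a combined GATA4 and 9 a combined GATA6 region, shares near those of all genes. The 3 with most GATA4 regions were Ldb1, a bridging cofactor (7 GATA4 and 5 GATA6), Lyl1, a blood bHLH factor on chromosome 8 (6 and 3), and Mbd3, a subunit of the NuRD co-repressor complex that FOG1 recruits (5 and 5).

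By called regions in the 6 libraries, the genes most like Zfpm1 were Dnah8, Mfsd13a and Nup93, whose summed absolute differences from it were 4, 8 and 8 regions, with 5 genes at 8 or less. Dnah8 held 3 combined GATA4 and 2 combined GATA6 regions, Mfsd13a held 6 and 8, and Nup93 held 5 and 3. Among the 7 genes within a summed difference of 2 from Gata2, those nearest to it in window length were Csrnp1, Zbtb12 and Olfr733. Csrnp1 held 1 combined GATA4 and 2 combined GATA6 regions, Zbtb12 held 2 and 0, and Olfr733 held 0 of either. Among the 9 genes within 4 of Zfpm2, Glipr2 and BC048562 were at 3 and Zfp800 at 4. Glipr2 and BC048562 each held 1 combined GATA4 region, and Zfp800 held 1 of each list, unlike Zfpm2. Calls were not scaled to window length, which was 100 kb at Glipr2 and BC048562 and 499.6 kb at Zfpm2. Ties were broken by window length, so the named genes stand for a tied group.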

How the data were processed

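Regions called for GATA4 and GATA6 in XEN cells were analysed. Per the study's methods and the submitters' processing notes, the authors mapped read pairs to the mm10 build (Bowtie2 2.3.4.1), filtered them with Picard and SAMtools (duplicates, mapping quality under 20, mitochondrial and blacklisted reads), and called each library with SEACR 1.3 (stringent, not normalised, numeric threshold, no IgG in the call). The deposited lists give total and maximum signal, a fragment pileup (coverage) not scaled for depth. A numeric threshold largely sets how many regions each list holds. The deposited combined lists give positions only. Merging the calls of the 3 libraries of a factor and keeping merged spans with a call from each gave them again exactly. A combined region is thus the joined span of its calls and not the sequence common to them.

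Groups came from the sample titles. Genes and features were from GENCODE M21 and sequence from GRCm38. Overlap meant at least 1 bp, while merging also joined calls that only touched. Counts were compared by two-sided exact permutation over libraries, and signal only as percentile within a list. Members and gene lists were chosen with earlier results of these data known. All combined regions at the 5 genes and merged regions in at least 4 of 6 libraries were named. Sequences shown were the strongest combined region of each gene, the Zfpm1 promoter and further regions picked after their motifs were seen. The proximal Gata2 promoter is not printed. Like genes had the smallest summed absolute difference in calls, for members averaging at least 3. Replicate numbers were not taken to pair the libraries, except in 1 alternative. No 2 libraries shared more than 13 identical regions. Alternatives changed windows, lists, overlap, motif setting or libraries. The counting code was tested on simulated data. Code ran under Python 3.11.15 with pandas 2.3.3, scipy 1.17.1, numpy 2.4.6, matplotlib 3.10.9 and pysam 0.24.0.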

Additional observations from a re-analysis of the deposited data

How the results depend on the processing

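Of 145 alternative values, none of the 70 for totals over the 5 genes reversed or went to 0, while 13 of the 75 for single genes reversed and 7 went to 0. Most of these totals were counts or percentiles, which cannot change sign. Their size did change. In the gene body alone combined regions fell from 13 to 9 (GATA4) and from 8 to 6 (GATA6). GATA4 regions with a GATA word fell from 9 to 6 when the region midpoint replaced the maximum. Leaving out each library in turn gave 14 to 15 combined GATA4 and 8 to 11 combined GATA6 regions, 7 to 8 merged regions in all libraries, a total difference of 0.833 to 5.83, and median percentiles of 90.7 to 93.9 (GATA4) and 92.7 to 94.1 (GATA6). Fewer libraries then had to hold a region, so such counts rise more easily than they fall. Over all alternatives the exact permutation p of the total difference was 0.2 to 0.8.

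The lowest exact permutation p of a single-gene difference (GATA4 minus GATA6) in the main setting was 0.3, at Gata2. No p below 0.1 was possible, so usual thresholds could not be passed. Single-gene differences turned sign at Gata3 with a 25 kb window (-0.667), in the gene body (-0.333) and without GATA6 replicate 1 or 2 (-0.167 each, to 1.33 without another library), and at Gata5 with a 100 kb window (1). At Zfpm1 they turned with a 100 kb window (-1), lists of equal length (-1.33), covered base pairs (-118), without GATA4 replicate 3 (-0.5, to 1.67 without another) and without GATA6 replicate 1 (-0.333), and at Zfpm2 with stricter lists (-1), without GATA4 replicate 2 (-0.333) and without GATA6 replicate 1 (-0.5, to 2.5 without another). The cause was not tested. The count of distal regions with a GATA word was chosen after seeing the data.

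With the replicate number as a block the total difference stayed 3 (exact sign-flip p = 0.5, smallest possible 0.25). Deviations of same-numbered libraries correlated by 0.00102 to 0.00148 over merged regions, and no call changed under the block. As 83.2% of merged regions came from 1 library, these correlations cannot show whether the numbers pair the libraries. Most regions rest on few fragments, and an absent region was not detectable at this depth rather than shown to be absent.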
